A study of Mus musculus with 2 samples.

Results

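TRBV12-1 and TRBV12-2 are the variable (V) gene segments of the T cell receptor (TCR) beta locus that encode the Vβ5 beta chains of the mouse, and their use was measured here in thymic CD4 SP T cells. Chains were counted as theirs when the deposited V call of a TRB contig was exactly TRBV12-1 or TRBV12-2, so contigs with the joint call TRBV12-2+TRBV13-2 were left out. This gave 1038 of the 9322 TRB chains of the series, 653 with TRBV12-1 and 385 with TRBV12-2, and these are 2 of the 22 TRBV names in the data. The cells came from 1 library of wild-type mice of strain C57BL/6J (WT) and 1 library of mice labelled C57BL/6-Btla KO (Btla-/-), in which the gene of the inhibitory receptor BTLA is deleted. All mice were aged 8 to 12 weeks, and the cells of both genotypes were enriched from thymocytes by negative selection with a kit for naive CD4 T cells. The number of mice behind each library was not given in the sources used here. The contigs hold TCR transcripts alone, so neither the genotype nor the CD4 SP label could be checked against Btla, Cd4 or other marker transcripts.

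A beta chain gene is assembled in the thymus when a V segment is joined to a diversity (D) and a joining (J) segment. The RAG recombinase cuts next to a recombination signal, which starts with a heptamer directly after the V segment. Bases are trimmed from the cut ends and others are added before the ends are joined. The join encodes the third complementarity-determining region (CDR3), the loop that mainly contacts peptide, whereas CDR1 and CDR2 are encoded by the V segment alone. Vβ5 chains are familiar from the OT-I and OT-II transgenic receptors. In strains that carry I-E, T cells with Vβ5 are deleted by endogenous superantigens, and C57BL/6 mice lack I-E.

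Both genes lie on the plus strand of chromosome 6 in GRCm38, in a stretch where the TRBV12 and TRBV13 segments alternate in the order TRBV12-1, TRBV13-1, TRBV12-2, TRBV13-2, TRBV12-3 and TRBV13-3. TRBV12-3 is annotated as a pseudogene in GENCODE. TRBV12-1 (ENSMUSG00000095574.2) spans chr6:41113550-41114067 and TRBV12-2 (ENSMUSG00000094525.2) spans chr6:41118851-41119364. Each has a leader exon and a V exon of 293 bases, and the starts of the V exons are 5297 bases apart. The V exons are printed from the GRCm38 genome because they carry the calls, with CDR1, CDR2 and the germline start of the CDR3 in capitals, in that order. The first is at chr6:41113775-41114067 and the second at chr6:41119072-41119364.
TRBV12-1: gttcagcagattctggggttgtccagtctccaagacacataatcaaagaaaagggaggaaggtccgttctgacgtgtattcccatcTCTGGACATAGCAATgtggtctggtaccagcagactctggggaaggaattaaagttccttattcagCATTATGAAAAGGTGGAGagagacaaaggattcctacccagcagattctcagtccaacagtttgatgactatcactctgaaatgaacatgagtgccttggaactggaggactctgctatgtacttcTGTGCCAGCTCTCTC
TRBV12-2: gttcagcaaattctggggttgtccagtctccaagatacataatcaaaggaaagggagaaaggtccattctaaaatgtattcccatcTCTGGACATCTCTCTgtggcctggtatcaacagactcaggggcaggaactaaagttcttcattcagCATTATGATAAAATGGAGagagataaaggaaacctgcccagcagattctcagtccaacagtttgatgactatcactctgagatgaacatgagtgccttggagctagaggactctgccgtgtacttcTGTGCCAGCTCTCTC

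The V exons of TRBV12-1 and TRBV12-2 differed at 32 of 293 bases, an identity of 89.1%. CDR1 differed at 4 of 15 bases and CDR2 at 3 of 18, whereas the 15 germline bases of the CDR3 were the same in both genes. The chains therefore could be told apart by CDR1 and CDR2 but not by their CDR3. In every chain called TRBV12-1 or TRBV12-2, the sequence from the start of the first framework to the end of the third was that of its own germline exon. None of the 733 chains with the joint call carried the CDR1 or the CDR2 of TRBV12-2, and all 733 carried the CDR1 of TRBV13-2. The recombination signals of the pair are shown beside that of TRBV13-2, their neighbour in the joint call, as the 39 bases that follow the V exon in the genome, with the heptamer in capitals. They are at chr6:41114068-41114106, chr6:41119365-41119403 and chr6:41121833-41121871.
TRBV12-1: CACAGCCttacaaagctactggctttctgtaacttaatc
TRBV12-2: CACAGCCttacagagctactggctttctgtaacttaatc
TRBV13-2: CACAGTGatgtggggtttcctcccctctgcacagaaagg
The stretches of TRBV12-1 and TRBV12-2 differed at 1 of 39 bases. Their heptamer, CACAGCC, followed 4 of the 18 V segments whose annotated end could be placed against a heptamer (22.2%), namely TRBV12-1, TRBV12-2, TRBV2 and TRBV5. The heptamer of TRBV13-2, CACAGTG, followed 7 of the 18 (38.9%), TRBV13-1 and TRBV13-3 included. Only the strand of the gene, directly after the segment, was read.

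TRBV12-1 was among the most used TRBV names in both libraries, and TRBV12-2 was used less. TRBV12-1 was found in 282 of 4141 WT TRB chains, 6.81% (6.06 to 7.62%), and in 371 of 5181 Btla-/- chains, 7.16% (6.47 to 7.90%). It ranked 4 of 22 names in the WT library and shared rank 2 with TRBV5 in the Btla-/- library. TRBV12-2 was found in 193 WT chains, 4.66% (4.04 to 5.35%), and in 192 Btla-/- chains, 3.71% (3.21 to 4.26%), at ranks 10 and 15. In both libraries the interval of TRBV12-1 lay above that of TRBV12-2. Ranges in parentheses are exact (Clopper-Pearson) 95% binomial intervals. They cover counting error only, not the spread between mice or library preparations, and with 1 library per genotype no test between genotypes was possible.

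**Figure D1:**
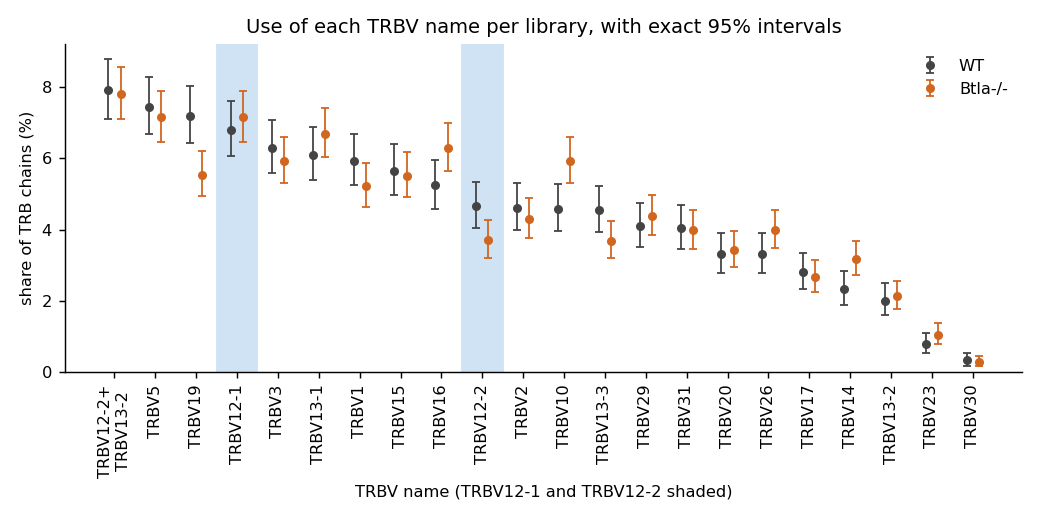
Share of TRB chains (y axis, percent) of each TRBV name (x axis, ordered by the WT share) in the WT and Btla-/- libraries; points are shares and bars are exact 95% intervals. TRBV12-1 lies at 6.81% and 7.16%, above TRBV12-2 at 4.66% and 3.71%.

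Between the genotypes, TRBV12-1 differed by 0.351 percentage points (Btla-/- minus WT), with a 95% Newcombe interval of -0.699 to 1.38. For TRBV12-2 the difference was -0.955 points (-1.79 to -0.140), an interval without 0, although the exact intervals of its shares overlapped. Of the 21 TRBV names that held 1% or more of a library's chains, 28.6% had a Newcombe interval without 0 and 9.52% had exact intervals apart. TRBV12-2 was thus 1 of 6 names that differed by the first measure and was not among those that differed by the second, TRBV10 and TRBV19, which are named after their values were seen. With 1 TRB chain taken per cell, the difference of TRBV12-2 was -0.775 points (-1.62 to 0.0515), which includes 0. Taken as 1 group, the genes accounted for 11.5% (10.5 to 12.5%) of the WT TRB chains and for 10.9% (10.0 to 11.7%) of the Btla-/- ones, a difference of -0.604 points (-1.90 to 0.678).

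Because the genes share their CDR3 start, their balance was also read within the pair. For each TRBV12-2 chain there were 1.46 TRBV12-1 chains in WT cells and 1.93 in Btla-/- cells. TRBV12-1 made up 59.4% (54.8 to 63.8%) of the pair's WT chains and 65.9% (61.8 to 69.8%) of its Btla-/- chains. The interval of this difference, 6.53 points (0.630 to 12.4), left out 0. Under 4 of 5 other ways of counting it included 0, with the difference above 0 under all 5.

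Among the interleaved neighbours, TRBV13-1 was used by 6.11% of WT and 6.70% of Btla-/- chains. The call TRBV13-2 alone was given to 2.0% and 2.12%, and TRBV13-3 was used by 4.54% and 3.69%. The joint call TRBV12-2+TRBV13-2 was the most frequent name in both libraries, at 7.92% and 7.82%. Its chains all carried the CDR1 of TRBV13-2, so the share under the name TRBV13-2 alone understates the use of that segment. TRBV13-2 and the joint call together held 411 of 4141 WT and 515 of 5181 Btla-/- chains. Of these neighbours, TRBV13-3 alone had a Newcombe interval of the difference without 0 (-0.853 points, -1.68 to -0.0457).

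The J partners of TRBV12-1 and TRBV12-2 were close to those of the other TRB chains. The J segments lie in the TRBJ1 and TRBJ2 clusters, each with its own constant gene, TRBC1 or TRBC2. Of the TRBV12-1 chains, 59.2% (53.2 to 65.0%) in WT and 57.4% (52.2 to 62.5%) in Btla-/- cells were joined to a TRBJ2 segment. For TRBV12-2 the shares were 57.5% (50.2 to 64.6%) and 54.7% (47.4 to 61.9%), and for the other TRB chains 60.4% and 60.3%. TRBJ2-7 was the most used partner of both genes in both libraries, in 19.9% of WT and 13.5% of Btla-/- TRBV12-1 chains and in 29 of 193 WT and 34 of 192 (17.7%) Btla-/- TRBV12-2 chains.

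TRBJ1-5 was the least used partner of TRBV12-1, with 6 chains in each library, 2.13% (0.785 to 4.57%) in WT and 1.62% (0.596 to 3.49%) in Btla-/-. With TRBV12-2, TRBJ1-5 reached 5.18% (2.51 to 9.32%) and 6.25% (3.27 to 10.7%), a comparison chosen after its values were seen, and these intervals overlapped those of TRBV12-1 in both libraries. The least used partners of TRBV12-2 were TRBJ1-6 and TRBJ2-2 in the WT library, with 5 chains each (2.59%), and TRBJ2-2 in the Btla-/- library, with 6 chains (3.12%). Over both genes and libraries, 48 shares of single TRBJ segments were set beside those of the other TRB chains, and 1 had intervals apart. Among the other TRBV names, 6.14% of such comparisons had intervals apart. The 1 case, named after its values were seen, was TRBJ1-2 in Btla-/- chains of TRBV12-1, with 10.8% (7.82 to 14.4%) where the other chains had 6.65% (5.95 to 7.41%). Its WT share was 7.45% (4.67 to 11.2%) against 6.22% (5.46 to 7.05%), with overlapping intervals. No TRBJ segment had intervals apart between WT and Btla-/- within TRBV12-1 or within TRBV12-2, of 12 for each. The same count was not made for other TRBV names.

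**Figure D2:**
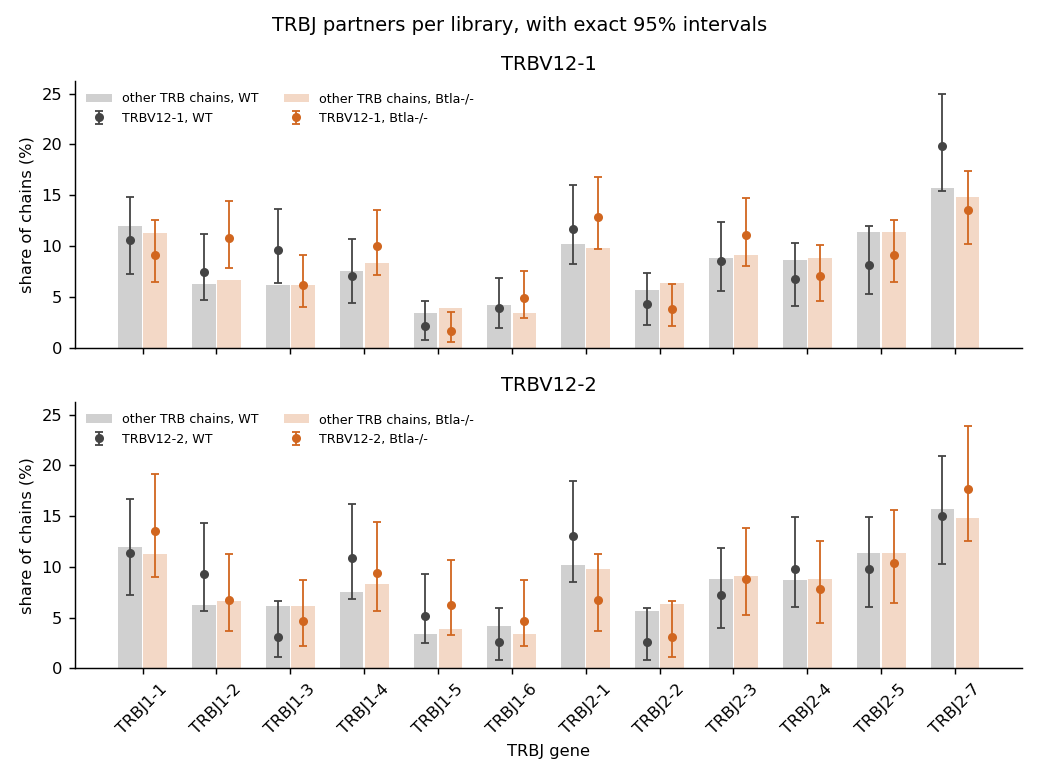
Share of chains (y axis, percent) joined to each TRBJ gene (x axis) for TRBV12-1 (top) and TRBV12-2 (bottom), with points and exact 95% intervals per library over pale bars for the other TRB chains of the same library. TRBJ2-7 is the highest point for both genes, and the Btla-/- point of TRBJ1-2 with TRBV12-1, at 10.8%, is the only one whose interval clears that of the other chains.

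A constant gene was called in all but 2 of the 1038 chains, and wherever one was called it was TRBC1 for TRBJ1 and TRBC2 for TRBJ2 segments. The D segment was named in 17.4% (13.1 to 22.3%) of the TRBV12-1 chains in WT and 22.9% (18.7 to 27.5%) in Btla-/- cells. For TRBV12-2 it was called in 26.4% (20.4 to 33.2%) and 21.4% (15.8 to 27.8%), and in other TRB chains in 23.8% (22.4 to 25.2%) and 22.8% (21.6 to 24.1%). The WT interval of TRBV12-1 lay below that of the other chains, which was seen only after the values were known. The other intervals of both genes overlapped those of the other chains. How often other TRBV names gave such a result was not counted. TRBD2 lies downstream of the TRBJ1 cluster and cannot be joined to it by deletion. TRBD2 was called in 0 of the 197 WT and 0 of the 245 Btla-/- chains that paired either gene with a TRBJ1 segment. With 3 chains taken as the limit for a count of 0, this allows shares of up to 1.52% and 1.22%.

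Most TRBV12-1 and TRBV12-2 chains began their CDR3 with the residues CASS, which the germline bases shown above encode. CASS opened 267 of 282 WT (94.7%, 91.4 to 97.0%) and 355 of 371 Btla-/- (95.7%, 93.1 to 97.5%) TRBV12-1 chains. It opened 189 of 193 WT (97.9%, 94.8 to 99.4%) and 185 of 192 Btla-/- (96.4%, 92.6 to 98.5%) TRBV12-2 chains. Of the other TRB chains, 64.2% (62.7 to 65.8%) and 65.5% (64.1 to 66.8%) began in this way, a share that pools V names with and without a germline start encoding CASS. TRBV5, TRBV2, TRBV3 and TRBV16 had CASS in 91.7 to 99.0% of their chains over both libraries, so the start is not particular to the pair. TRBV13-2 and the joint call, whose germline CDR3 start does not encode CASS, had CASS in 0 of 411 WT and 0 of 515 Btla-/- chains. With 3 chains again taken as the limit for a count of 0, up to 0.730% and 0.583% could have CASS. TRBV13-1 had it in 86.6% and 88.2% of chains, and TRBV13-3 in 81.4% and 74.3%.

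The residue after CASS was most often leucine, the last germline residue of both genes. Leucine followed in 51.3% of WT and 49.6% of Btla-/- TRBV12-1 chains with CASS, and in 49.2% and 48.6% of those of TRBV12-2. Proline followed in 56 of 267 WT and 95 of 355 Btla-/- chains (26.8%) for TRBV12-1 and in 23.8% and 23.8% for TRBV12-2. Arginine followed in 10.9% and 8.73%, and in 9.52% and 11.9%. The fifth codon began with C, the germline base at this place, in 86.9% and 89.3% of these TRBV12-1 chains and in 84.7% and 89.7% of these TRBV12-2 chains. These were 232 and 317 TRBV12-1 chains and 160 and 166 TRBV12-2 chains. Germline bases were matched without a break through this C in fewer, 189 and 265 for TRBV12-1 and 134 and 137 for TRBV12-2. In the rest it followed a mismatch. Codons that begin with C encode leucine, proline, histidine, glutamine or arginine.

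The number of germline V bases at the start of each CDR3 was counted up to the first mismatch, so an added base equal to the germline base counts as kept. All 15 were present in 33.7% (28.2 to 39.5%) of the TRBV12-1 chains from WT and 36.4% (31.5 to 41.5%) from Btla-/- cells. For TRBV12-2 the shares were 34.2% (27.5 to 41.4%) and 33.3% (26.7 to 40.5%). Among the other chains whose V segment could be placed, 24.4% (22.9 to 26.0%) and 24.4% (23.0 to 25.8%) kept their whole V end, and the intervals of both genes lay above these in both libraries. Each of 18 TRBV names was also set against all remaining chains, with the other gene of the pair kept among them. Of these names 27.8% were higher with intervals apart in both libraries, namely TRBV1, TRBV2, TRBV5, TRBV12-1 and the joint call, so the excess of TRBV12-1 is not particular to it. TRBV12-2 was not among them, because its interval in Btla-/- cells (26.7 to 40.5%) overlapped that of the remaining chains (24.2 to 26.8%). TRBV12-1 lost 1.91 V bases on average in WT and 1.78 in Btla-/- chains, TRBV12-2 lost 1.78 and 1.82, and the other chains lost 2.64 and 2.63. The 4 V names followed by CACAGCC, a grouping made after the values were seen, had the 4 lowest means of 17 names in WT (1.41 to 1.91 bases). The next mean in WT, that of the joint call, was close at 1.95. In Btla-/- chains the 4 names had 4 of the 5 lowest means of 18 names (1.49 to 1.87). There TRBV1, which is followed by CACAGTG, was at rank 2 with 1.77 bases. The chains share their libraries and germline ends differ in length between genes, so no test was made over chains.

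The kept lengths of 11, 13 and 15 bases were more frequent than 12 and 14 with both genes in both libraries. The 3 odd lengths held 74.8% and 79.2% of TRBV12-1 chains and 77.7% and 80.2% of TRBV12-2 chains (WT and Btla-/-). The germline end repeats TC, so at the odd lengths the last matched base is a C. How far added C bases contribute to this was not tested. Fewer than 11 bases were kept in 15 WT and 16 Btla-/- TRBV12-1 chains and in 4 and 7 TRBV12-2 chains, and these were in each case the very chains without CASS. At exactly 11 bases, all 56 and 64 TRBV12-1 chains and all 33 and 36 TRBV12-2 chains still had CASS. Every codon that starts with TC encodes serine, and the first 11 germline bases end with TC.

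**Figure D3:**
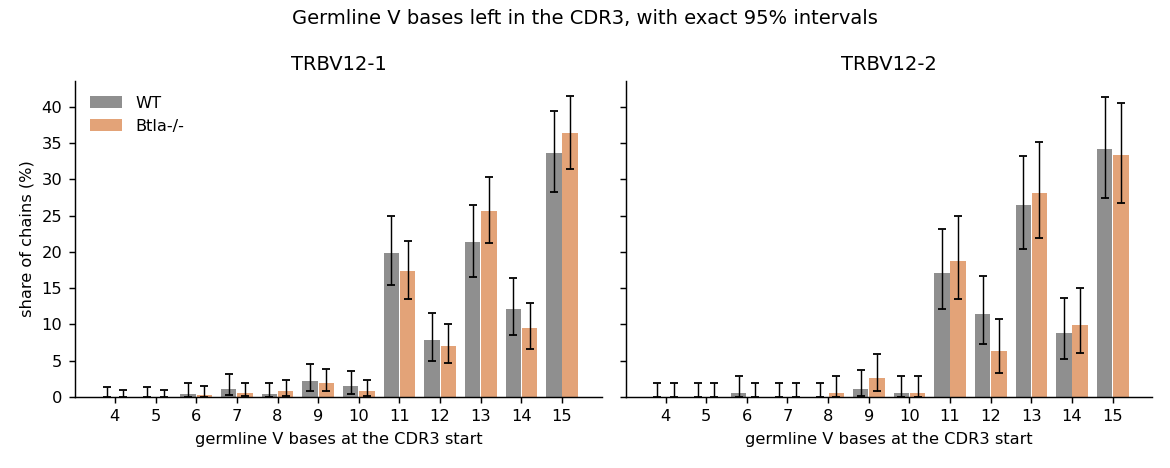
Share of chains (y axis, percent) by the number of germline V bases matched from the start of the CDR3 (x axis, of 15) for TRBV12-1 (left) and TRBV12-2 (right); bars are the WT and Btla-/- libraries and lines are exact 95% intervals. Bars at 11, 13 and 15 stand above those at 12 and 14 in both genes, and those under 11 sum to at most 5.32%.

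CDR3 length included the cysteine that opens the loop and the phenylalanine that closes it, and its median was 14 amino acids for both genes in both libraries. The mean of TRBV12-1 was 14.04 ± 1.41 amino acids in WT and 14.32 ± 1.44 in Btla-/- chains (SD over 282 and 371 chains). The mean of TRBV12-2 was 14.32 ± 1.44 and 14.07 ± 1.62 (SD over 193 and 192 chains), and other TRB chains had 14.22 ± 1.53 and 14.27 ± 1.52. Lengths ran from 8 to 19 amino acids over the pair. The SDs describe chains and not replicates.

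A CDR3 under 14 amino acids was carried by 31.6% (26.2 to 37.3%) of the TRBV12-1 chains in WT and 24.5% (20.2 to 29.2%) in Btla-/- cells. For TRBV12-2 the shares were 25.4% (19.4 to 32.1%) and 28.6% (22.4 to 35.6%), and for other TRB chains 28.1% and 27.2%. The difference of TRBV12-1, -7.03 points (-14.01 to -0.114), had a Newcombe interval without 0, as 4.76% of the 21 TRBV names did, which is TRBV12-1 itself. It was -5.85 points (-13.0 to 1.20) with each distinct chain counted once. In cells with exactly 1 TRA and 1 TRB chain its sign turned, to 2.42 points, with an interval that includes 0. The difference of TRBV12-2 was 3.26 points (-5.60 to 12.1), and whether the genes differ in this was not tested.

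**Figure D4:**
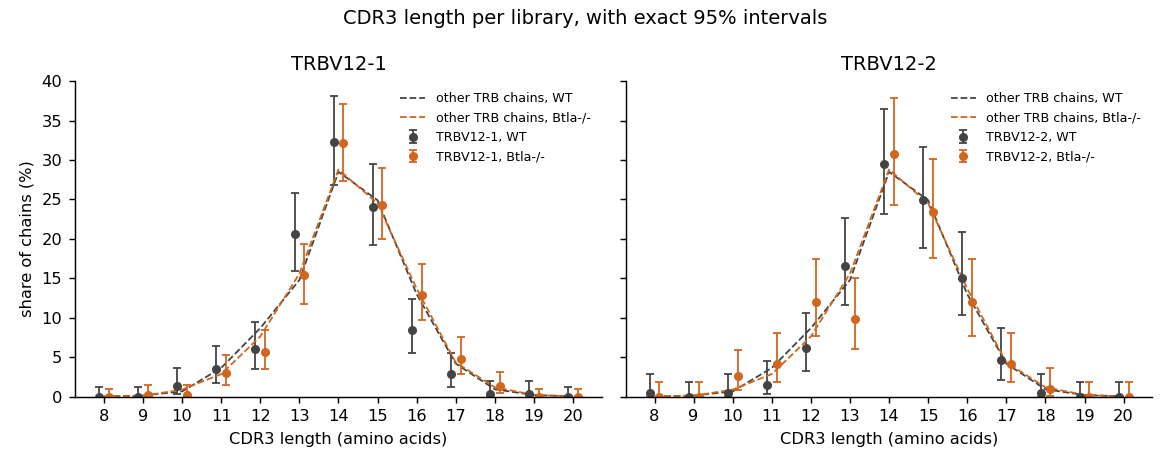
Share of chains (y axis, percent) by CDR3 length in amino acids (x axis) for TRBV12-1 (left) and TRBV12-2 (right), with points and exact 95% intervals per library and dashed lines for the other TRB chains. All distributions have their highest point at 14 amino acids, and the WT points of TRBV12-1 lie at or above the Btla-/- points from 10 to 14 and below them from 15 to 18, with overlapping intervals.

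Between the V and J bases lay 10.3 unmatched bases on average in WT and 11.3 in Btla-/- TRBV12-1 chains, and 11.5 and 10.9 in TRBV12-2 chains. The SDs over chains were 3.66 to 4.33 bases. The other chains had 10.4 and 10.6. TRBV12-1 had the fewer bases in the WT and TRBV12-2 in the Btla-/- library, in the same order as the mean CDR3 lengths.

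A TRA chain was recovered in fewer than 1 in 2 of the cells with either gene, as in the other cells. In the WT library it was found in 113 of 282 TRBV12-1 cells, 40.1% (34.3 to 46.0%), in 85 of 193 TRBV12-2 cells, 44.0% (36.9 to 51.3%), and in 41.8% (40.1 to 43.4%) of the other cells with a TRB chain. In the Btla-/- library it was found in 119 of 371 TRBV12-1 cells, 32.1% (27.4 to 37.1%), in 67 of 192 TRBV12-2 cells, 34.9% (28.2 to 42.1%), and in 34.8% (33.4 to 36.3%) of the others. The share was thus lower in the Btla-/- library for both genes and for the other cells. Intervals were apart between the libraries for the other cells, but overlapped for each of the genes. The other cells numbered 3536 and 4453, against 192 to 371 cells for a gene in a library. The overlap therefore does not show a smaller difference for the genes than for the other cells.

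TRAV segments were grouped into subgroups by their number, which joins the near-identical copies of the locus. TRAV6 was the most frequent subgroup of TRBV12-1 cells, in 25 of 128 WT TRA chains (19.5%, 13.1 to 27.5%) and 22 of 133 Btla-/- TRA chains (16.5%, 10.7 to 24.0%). It was followed by TRAV13 (13.3%) and TRAV7 (10.9%) in the WT library and by TRAV7 (14.3%) and TRAV14 (11.3%) in the Btla-/- library. TRBV12-2 cells had 97 WT and 68 Btla-/- TRA chains. Their most frequent subgroups were TRAV6 (18.6%, 11.4 to 27.7%), TRAV7 (15.5%) and TRAV14 (12.4%) in the WT library. In the Btla-/- library they were TRAV7 (14.7%, 7.28 to 25.4%), TRAV14 (11.8%), and TRAV6 and TRAV12 at 10.3% each (4.24 to 20.1%). In the other cells TRAV6 had 15.5% and 15.6% and TRAV7 12.6% and 15.1%. Of 80 comparisons of a subgroup between cells of either gene and the other cells, 0 had intervals apart, where other TRBV names gave 0.658%. None of the 20 subgroups had intervals apart between the libraries for either gene, a count not made for other TRBV names. Pairing preferences smaller than these intervals could not be seen at this depth.

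**Figure D5:**
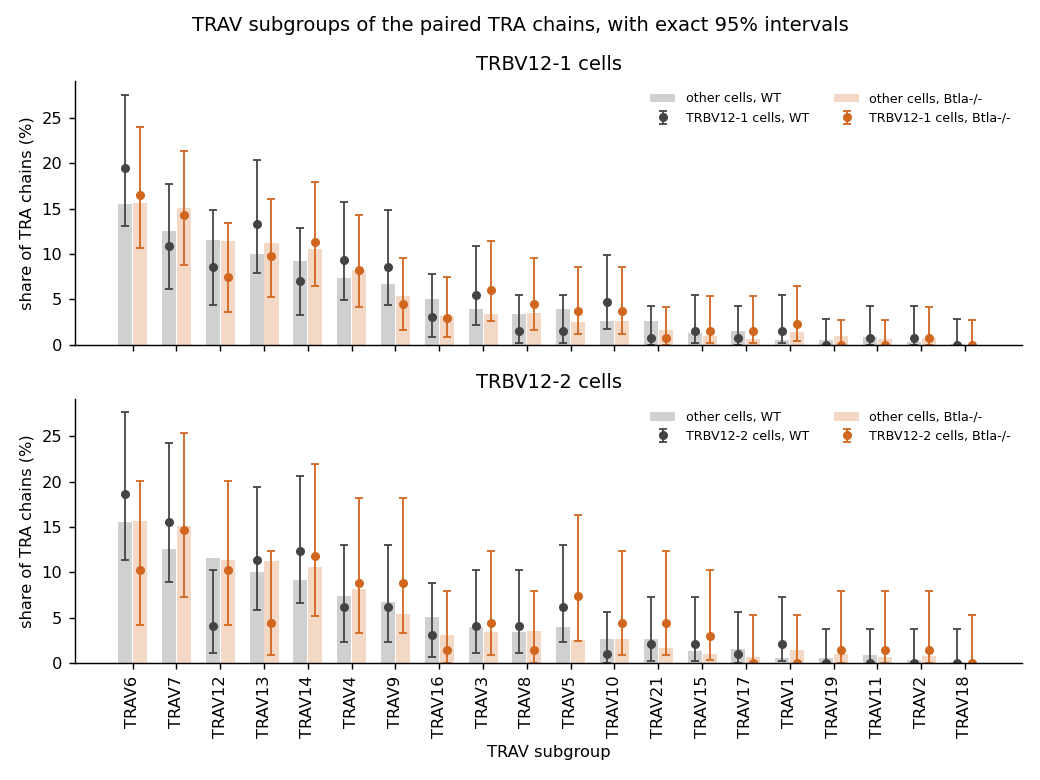
Share of TRA chains (y axis, percent) of each TRAV subgroup (x axis, ordered by the other cells) in cells with TRBV12-1 (top) or TRBV12-2 (bottom), with points and exact 95% intervals per library over pale bars for the other cells with a TRB chain. Intervals are wide, as 68 to 133 TRA chains stand behind each set, and all reach into the range of the other cells.

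TRBV12-1 chains had a median of 11 UMIs in WT and 9 in Btla-/- cells, and TRBV12-2 chains had 14 and 12, where a UMI counts 1 captured transcript molecule. The other TRB chains had 13 and 10, so TRBV12-1 lay below them and TRBV12-2 above them in both libraries. Across TRBV names that held 1% or more of a library, medians ran from 7 to 19 UMIs in the WT library and from 6 to 14 in the Btla-/- library. The middle 50% of chains had 7 to 20 UMIs (WT) and 6 to 15 UMIs (Btla-/-) for TRBV12-1, and 8 to 25 and 7 to 18 for TRBV12-2. These ranges overlap widely. At least 3 UMIs stood behind 99.3% of WT and 96.5% of Btla-/- TRBV12-1 chains and behind 97.4% and 99.0% of TRBV12-2 chains. Median UMIs differed by at most 2 between chains of either gene with and without a TRA chain in the cell. The libraries held 80347 TCR UMIs in 4040 WT cells and 75456 in 5077 Btla-/- cells, of which 7897 and 7337 were in chains of the pair.

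Some cells with either gene held a further TRB chain. This was so for 7.09% (4.39 to 10.7%) of WT and 6.47% (4.19 to 9.47%) of Btla-/- TRBV12-1 chains, and for 9.33% (5.62 to 14.3%) and 6.25% (3.27 to 10.7%) of TRBV12-2 chains. Of the other TRB chains, 6.16% and 6.45% lay in such cells. The further chain was the other gene of the pair in 2 cells of each library. Droplets that held more than 1 cell were not removed, and their part in this was not tested. The libraries shared 30 barcodes, and these included 2 WT and 4 Btla-/- cells with either gene.

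Most TRBV12-1 and TRBV12-2 chains were found in a single cell. Chains found in 2 or more cells made up 17 of 282 WT (6.03%) and 29 of 371 Btla-/- (7.82%) TRBV12-1 chains. They made up 20 of 193 WT (10.4%) and 18 of 192 Btla-/- (9.38%) TRBV12-2 chains. Among the other TRB chains the shares were 6.66% and 8.73%. Copies of a chain are not independent draws, so no interval is given for these shares. Of 282 WT and 371 Btla-/- TRBV12-1 chains, 273 and 356 were distinct in J segment and CDR3 nucleotides, and of 193 and 192 TRBV12-2 chains, 181 and 183 were. The most repeated WT TRBV12-2 chain was found in 4 cells and the most repeated TRBV12-1 chain of each library in 3. In the Btla-/- library 9 TRBV12-2 chains were found in 2 cells each. The CDR3 nucleotides of the most repeated chains show how the kept V bases of 11 or 15 appear in a join. Lower case marks bases that match the germline V or J segment and capitals mark the bases between them.
WT TRBV12-1 with TRBJ2-7, 3 cells: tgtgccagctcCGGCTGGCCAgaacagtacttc
WT TRBV12-2 with TRBJ2-4, 4 cells: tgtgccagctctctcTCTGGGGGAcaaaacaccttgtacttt
Btla-/- TRBV12-1 with TRBJ1-3, 3 cells: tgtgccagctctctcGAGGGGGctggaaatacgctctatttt
A TRA chain was recovered in 0 of the 3 cells of the first, in 1 of the 4 cells of the second and in all 3 cells of the third, of which 2 had the same TRA CDR3.

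The CDR3 amino acid sequences of TRBV12-1 shared by both libraries were 3, of 270 distinct in WT (1.11%) and 356 in Btla-/- (0.843%). For TRBV12-2 there were 0, of 181 and 183. The other TRBV names together shared 15 within the same name, 0.426% of WT and 0.340% of Btla-/- sequences. Among single names, TRBV2 with 3 shared (1.63% and 1.39%) and TRBV20 with 2 shared (1.53% and 1.16%) had higher shares than TRBV12-1. Counted by nucleotides, the other TRBV names together shared 1 CDR3, in TRBV2, and no test was made on counts this small. Of the 3 shared TRBV12-1 sequences, 2 were also found with the same nucleotides in both libraries, 1 cell in each, and no barcode was shared among these cells. They are shown with the third, which was encoded by different nucleotides in WT and Btla-/- cells.
TRBJ1-2, both libraries: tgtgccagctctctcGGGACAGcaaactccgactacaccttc
TRBJ1-2, the same residues, 2 further WT cells: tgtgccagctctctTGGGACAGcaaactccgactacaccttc
TRBJ2-7, both libraries: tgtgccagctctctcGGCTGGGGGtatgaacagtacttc
TRBJ1-2, WT: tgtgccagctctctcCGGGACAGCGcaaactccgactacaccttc
TRBJ1-2, Btla-/-: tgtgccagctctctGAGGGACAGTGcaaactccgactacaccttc
In the shared sequences 14 or all 15 germline V bases were kept and 7 to 11 bases lay between V and J. In each of them a run of 7 of these bases matched a D segment, TRBD1 with TRBJ1-2 and TRBD2 with TRBJ2-7.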

How the data were processed

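TCR libraries of thymic CD4 SP T cells, 1 WT and 1 Btla-/-, were analysed from the contig annotations. Per the labels, the authors assembled contigs with Cell Ranger 7.2.0 on GRCm38. The deposited counts of reads and UMIs per contig are raw, and all contigs were high-confidence, full-length, productive and from called cells. A deposited table by the authors lists V gene use in percent and served only as an alternative. Their tables of CDR3 lengths and clone proportions were not used.

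Every productive TRB contig was counted by its deposited V call, and doublets were not removed. A chain called to one gene copy can belong to a near-identical copy, which was checked here by CDR1 and CDR2. WT cells held 26700294 reads and Btla-/- cells 22026825. Shares have exact 95% binomial intervals and differences have Newcombe intervals, for counting error only. Intervals were called apart when they did not overlap. No test was made with 1 library per genotype.

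Germline V, D and J bases came from the GRCm38 genome with GENCODE M21 positions. V names not directly followed by a heptamer at their annotated end were left out of counts of kept V bases. The named genes were both V genes, their TRBV13 neighbours and the joint call, the most and least used TRBJ of each, the 3 most used TRAV subgroups of each, TRBJ or TRAV with intervals apart from other chains in the same direction in both libraries (there were none), and CDR3s found in both libraries or in most cells. Genes and lists were chosen with earlier results of these data known. Shares were recounted after dropping contigs under 3 UMIs, after keeping only cells with a single chain of each kind, with identical chains collapsed, without the barcodes found in both libraries, with 1 TRB chain per cell, with the joint call as TRBV12-2, and from the deposited percentages. The reading of kept bases and the intervals were tested on simulated data. Full recovery of the kept bases was required only for joins whose first added base differed from the germline base. It was not required for joins with bases added at random, where an added germline base is read as kept. Computations used Python 3.11.15, pandas 2.3.3, numpy 2.4.6, scipy 1.17.1 and matplotlib 3.10.9.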

Additional observations from a re-analysis of the deposited data

How the results depend on the processing

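Of 269 values of 53 results under the alternatives, 246 lay inside the 95% interval of the value reported and, where they had an interval, kept any exclusion of 0. The deposited percentages have no interval, so for their TRBV12-2 difference (-0.900) the exclusion of 0 could not be judged. In cells with exactly 1 TRA and 1 TRB chain, TRBV12-1 had 5.97% of WT and 5.93% of Btla-/- chains. There TRBV12-2 joined TRBJ2 in 47.5% and 47.3%, TRBV12-1 kept all V bases in 44.0% and 31.0%, 32.2% of Btla-/- TRBV12-1 CDR3s were under 14 amino acids (turning that difference to 2.42 points), and 100% of Btla-/- TRBV12-2 chains had at least 3 UMIs. With the joint call added, TRBV12-2 had 12.6% and 11.5%, but none of the added chains carried the CDR1 or the CDR2 of TRBV12-2. With at least 3 UMIs per contig, TRA recovery was 29.3% and 17.6% for TRBV12-1 and 33.5% and 21.1% for TRBV12-2 cells. The TRBV12-2 difference had an interval with 0 in cells with 1 chain of each kind (-0.445) and with 1 TRB chain per cell (-0.775). It also did with the joint call (-1.06), but those added chains carry the CDR1 of TRBV13-2, so this count does not bear on TRBV12-2 itself. The short-CDR3 difference of TRBV12-1 had an interval with 0 with distinct chains (-5.85). The difference of TRBV12-1 within the pair did with 3 UMIs (5.50), 1 chain of each kind (2.53), distinct chains (5.92) and 1 TRB chain per cell (5.73). Single-pair cells leave 84, 87, 59 and 55 chains, so their intervals are wider. The cause was otherwise not tested. No paired analysis was possible because each genotype had 1 library. TRAV shares rest on 68 to 133 chains, where only large differences could be seen.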
